A study of Mus musculus with 17 samples.

Results

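Bile acids are detergents that hepatocytes make from cholesterol, link to an amino acid and secrete into bile, and take up again from portal blood. The classical pathway of synthesis starts with Cyp7a1 and the alternative pathway uses Cyp7b1. The bile acid receptor Nr1h4 (FXR) induces Nr0b2 (SHP), a repressor of Cyp7a1, which closes a feedback loop. Bile acid synthesis in rodents also follows a daily rhythm.

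The genes described are 10 named genes of bile acid synthesis and transport, of which 6 have a probe set annotated to that symbol alone, 1 probe set each, among 13069 probe sets on a pair of mouse array types (chip A and chip B). They are Cyp7a1, Cyp7b1, Baat, Slc10a1, Abcb11 and Abcb4. Cyp8b1, Cyp27a1, Slco1a1 and Akr1d1 were not analysed here. No probe set with several symbols names any of the 10 genes. All 6 genes passed the filter on dim probe sets in liver and 1, Cyp7b1, passed it in hippocampus.

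Male Rj:NMRI mice were fed for 57 or 58 days and killed in the morning, at most 6 h after food. The fungal oil diet held 1.1% fungal oil, giving 0.5% of the diet as arachidonate. The fish oil diet held 1.9% fish oil, giving 0.5% of the diet as docosahexaenoate. The third diet held both oils, and the control diet held neither. The oils took the place of medium-chain triacylglycerol oil, while milk fat, palm olein, sunflower oil and soybean oil were shared by all diets. In liver there was 1 RNA per oil diet and there were 2 control RNAs, each on both chips. In hippocampus there was 1 RNA per diet, and the both-oils RNA was analysed on chip B only. The labels give 10 mice per diet, housed 10 per cage, and 5 mice selected, but they do not say whether an RNA came from 1 mouse or several, or whether the 2 control RNAs came from separate animals. A p-value in liver therefore measures a spread that may be technical, and cage and diet cannot be told apart.

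Values are intensities in array units, and a negative value is what background subtraction leaves. The 17 arrays had trimmed means that lay close together, so they were compared as deposited within a tissue. Of the probe sets, 31.7% to 34.5% were negative on the liver chip B arrays and 19.9% to 21.1% on the liver chip A arrays. Cyp7a1, Baat and Slc10a1 are on chip B, and the other 3 genes are on chip A. The ratio of the 3-prime to the 5-prime Gapdh probe set, a sign of RNA and labelling quality, was 1.89 to 3.26 in liver and 0.84 to 0.95 in hippocampus. The highest ratio, 3.26, was that of the fish oil liver RNA on chip B. The same RNA had a Gapdh ratio of 1.95 on chip A. Its actin ratio on chip B was 3.33, where the liver arrays of that chip ranged from 3.32 to 4.17. All 5 measured hepatocyte markers were higher in liver than in hippocampus on every array, and all 4 measured neuron markers were lower in liver.

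Abcb11 and Abcb4, a pair of ATP-driven transporters of the hepatocyte's canalicular membrane, are on the same chip and their diet values are set side by side, so the 250 bases before their RefSeq transcription starts (GRCm38.p6) are shown first. Capitals mark the motifs found in a search of both strands, from 250 bases before to 50 after the start. The nuclear receptor motif was AGGTCA. The GC box was searched as GGGCGG. The letters of the TATA box were TATAAA. The Abcb11 stretch is chr2:69342617-69342866 on the minus strand and the Abcb4 stretch is chr5:8893471-8893720 on the plus strand.
Abcb11: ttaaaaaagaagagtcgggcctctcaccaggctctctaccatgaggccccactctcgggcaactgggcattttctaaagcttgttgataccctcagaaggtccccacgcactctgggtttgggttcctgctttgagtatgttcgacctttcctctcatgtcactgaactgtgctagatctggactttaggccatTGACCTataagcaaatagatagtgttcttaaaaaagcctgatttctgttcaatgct
Abcb4: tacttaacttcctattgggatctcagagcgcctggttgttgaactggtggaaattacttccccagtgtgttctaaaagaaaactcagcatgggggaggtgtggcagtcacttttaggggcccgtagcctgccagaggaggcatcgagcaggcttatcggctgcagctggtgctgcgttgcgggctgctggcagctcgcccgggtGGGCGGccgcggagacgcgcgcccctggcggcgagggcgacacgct
The Abcb11 stretch has a G and C content of 46.4% and 4 CpG dinucleotides, and the Abcb4 stretch 61.6% and 18. In Abcb11 the match is AGGTCA read on the opposite strand, its first base at -56 from the start. In Abcb4 the match is GGGCGG on the sense strand at -46. Of 32841 RefSeq mouse promoters of the full length searched, the nuclear receptor motif occurs in 16.3%, the GC box in 35.7% and the TATA box in 13.6%. A match describes the letters and is no evidence of binding. RefSeq promoters were not shown for Cyp7a1, Cyp7b1 and Baat.

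Each of the 6 genes was higher in liver than in hippocampus. Of the 6, 5 entered the tissue fit through their liver level alone, since a probe set was kept there if it passed the filter in either tissue, so the count of 6 is a description. Each was called by limma at a Benjamini-Hochberg adjusted p under 0.05 with at least a 2-fold difference, where 20.2% of 7889 probe sets were called higher in liver and 31.7% lower. With all 13069 probe sets tested and no filter, the same 6 were called, among 3860 probe sets called in either direction. Signals below 15 units, 0.1 times the common trimmed mean, were set to that floor. A gene under the floor on every hippocampus array has only a lower bound for its fold. Its hippocampus values, all set to the floor, add no spread of their own to the fit behind its p-value. The p-values come from the limma fit with diet as a covariate, while the folds are of tissue means unless called fitted. Fewer cells of a type and less RNA per cell cannot be told apart in such tissue samples.

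Slc10a1 (Ntcp) carries bile salts from portal blood into the hepatocyte with sodium. Its liver intensities were 3801 with fungal oil, 5112 with fish oil and 4629 with both oils, and 5117 and 3237 in the controls, while in hippocampus it read -46, -86 and -47 with the same diets and -11 in the control. Its liver level was thus at least 295-fold that of hippocampus (limma adjusted p = 6.66e-08). Abcb4, which moves phosphatidylcholine into bile, was at least 39.5-fold higher (adjusted p = 1.51e-06, limma), with -1 and -10 in hippocampus of mice fed fungal and fish oil and 14 in the control. Abcb11, the bile salt export pump, was at least 23.3-fold higher (adjusted p = 2.21e-06, limma), with -4, -1 and -11 in the same 3 RNAs.

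Baat joins bile acids to taurine or glycine. In hippocampus it read 79 with fungal oil, 9 with fish oil and 11 with both oils, and 11 in the control, so 3 of 4 arrays lay below the floor and the fungal oil array stood apart. With those 3 arrays at the floor its mean in liver was 52.2-fold that in hippocampus (limma adjusted p = 3.40e-05), and the size depends on the floor. The fitted log2 difference of 5.78 became 6.18 with a floor of 7.5 and 4.77 with a floor of 37.5, which are folds of 72.6 and 27.2.

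Cyp7b1, an oxysterol and steroid 7-alpha-hydroxylase known from brain as well as liver, was the gene best measured in hippocampus, above the floor on all 3 arrays. It read 88 with fungal oil and 101 with fish oil, and 120 in the control. Its liver excess was 9.63-fold between tissue means, or 3.21 on the log2 scale in the fit with diet as a covariate (SE 0.18, adjusted p = 2.09e-05, limma). Neither oil array of hippocampus lay 1.5-fold from the control, with log2 differences of -0.45 with fungal oil and -0.25 with fish oil. With 1 RNA per diet this has no test. In the same tissue 14.2% of 6538 kept probe sets lay at least 1.5-fold from the control with fungal oil and 15% with fish oil.

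Cyp7a1, the rate-limiting enzyme of the classical pathway, had the smallest difference between the tissues of the 6 genes. In hippocampus it read 18 with fungal oil, 18 with fish oil and 34 with both oils, and 11 in the control, with 1 of the 4 arrays below the floor. The mean in liver was 3.20-fold that in hippocampus, and the fitted difference was 1.83 on the log2 scale (SE 0.36, adjusted p = 0.00305, limma). Its liver signal was dim, and the lowest liver value, 23 in a control, lay under the highest hippocampus value.

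**Figure D1:**
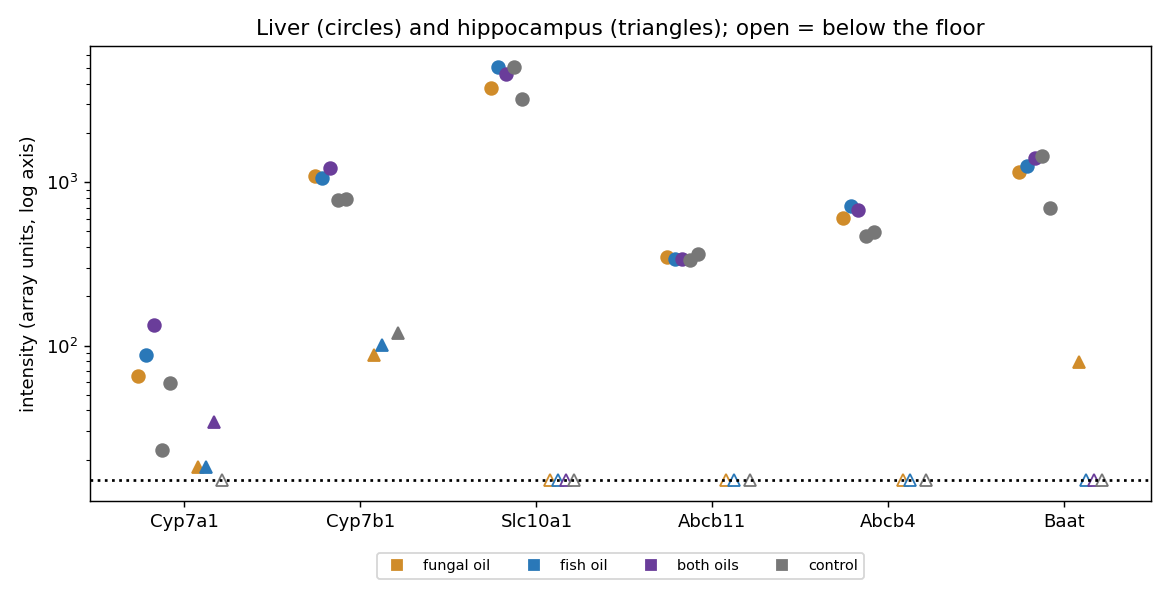
Intensity of each gene on every array, on a log axis, with liver as circles and hippocampus as triangles, coloured by diet. Open symbols lie below the floor of 15 (dotted line) and are drawn on it. Slc10a1, Abcb11 and Abcb4 are below the floor on every hippocampus array, Cyp7b1 is above it on all, and the Cyp7a1 values of the tissues overlap.

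The diets were compared in liver by limma with the 4 diets in 1 fit per chip, in which the only measured spread is that between the 2 control RNAs. No gene passed at an adjusted p under 0.05 in any of the 6 contrasts, and neither did any of 6537 kept probe sets (0% called in each, namely every oil diet and their mean set against control, fungal set against fish oil, and the interaction term). At an unadjusted p under 0.05, 1 of the 6 genes (Cyp7b1) passed with fungal oil, where 9.16% of all kept probe sets did. With fish oil 2 passed (Cyp7b1 and Abcb4) against 11.1%, with both oils the same 2 against 9.9%, and for the mean of the 3 oil diets the same 2 against 11.5%. Between fungal and fish oil 0 of the 6 passed (8.99% of all), and 0 passed for the interaction (9.29% of all).

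Cyp7a1 read higher with each oil, with intensities of 65 with fungal oil, 87 with fish oil and 133 with both oils, and 23 and 59 in the controls. The 3 oil RNAs lay above both controls, but the fungal oil RNA was only 1.10-fold above the higher control and the controls differed from each other by 2.57-fold. The log2 differences from the control mean were 0.82, 1.24 and 1.85 with fungal oil, fish oil and both oils (SE 0.80 each), with limma adjusted p of 0.792, 0.622 and 0.580. With both oils the signal was 5.78-fold and 2.25-fold above the 2 controls. Of kept chip B probe sets, 4.71% differed by more in either direction with that diet.

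Cyp7b1 had intensities of 1097 with fungal oil, 1063 with fish oil and 1217 with both oils, and 783 and 793 in the controls. The oil RNAs lay close together, well clear of a pair of controls that differed by 1.01-fold. The log2 differences were 0.48, 0.43 and 0.63 (SE 0.088 each), with unadjusted p of 0.0107, 0.0143 and 0.00475 and limma adjusted p of 0.505, 0.397 and 0.390. The mean of the oil diets lay 0.51 above the controls on the log2 scale, a 1.43-fold difference with a 95% interval of 1.24 to 1.64 (unadjusted p = 0.0036, adjusted p = 0.363, limma). Among kept chip A probe sets, 13.4% differed by more with both oils, 28.4% with fish oil and 21.7% with fungal oil.

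Baat, the conjugating enzyme, read 1164 with fungal oil, 1260 with fish oil and 1403 with both oils, and 1449 and 697 in the controls. All 3 oil RNAs fell between the controls, which differed by 2.08-fold. The log2 differences were 0.21, 0.33 and 0.48 (SE 0.54 each). Without the second control they became -0.32, -0.20 and -0.05, so the sign rested on that RNA.

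Slc10a1, the uptake transporter, overlapped between diets as well. Its oil RNAs, given above, all lay between the controls, which differed by 1.58-fold. The log2 differences were -0.10, 0.33 and 0.19 (SE 0.35 each), and leaving out 1 control or the other turned the sign: 0.23 with fungal oil without the first control, and -0.0014 with fish oil and -0.14 with both oils without the second.

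Abcb11 was flat across the diets. It read 350 with fungal oil, 341 with fish oil and 338 with both oils, and 336 and 362 in the controls, so the oil RNAs lay within the range of the controls. The mean of the oil diets differed from the controls by -0.02 on the log2 scale (SE 0.097, adjusted p = 0.934, limma), a fold of 0.983 with a 95% interval of 0.799 to 1.21.

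Abcb4 read 601 with fungal oil, 721 with fish oil and 675 with both oils, and 467 and 499 in the controls. The oil RNAs were all above the controls, fish oil highest. The log2 differences were 0.32, 0.58 and 0.48 (SE 0.11 each), with unadjusted p of 0.0617, 0.0121 and 0.0202 and limma adjusted p of 0.570, 0.388 and 0.447. The mean of the oil diets was 1.38-fold the control (95% interval 1.15 to 1.64, unadjusted p = 0.0101, adjusted p = 0.388, limma). The Abcb4 probe set, like those of Cyp7b1, Slc10a1 and Baat, carries the suffix for probes that may match related transcripts. Abcb1a and Abcb1b, its nearest relatives, read between -8 and 17 on every liver array.

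**Figure D2:**
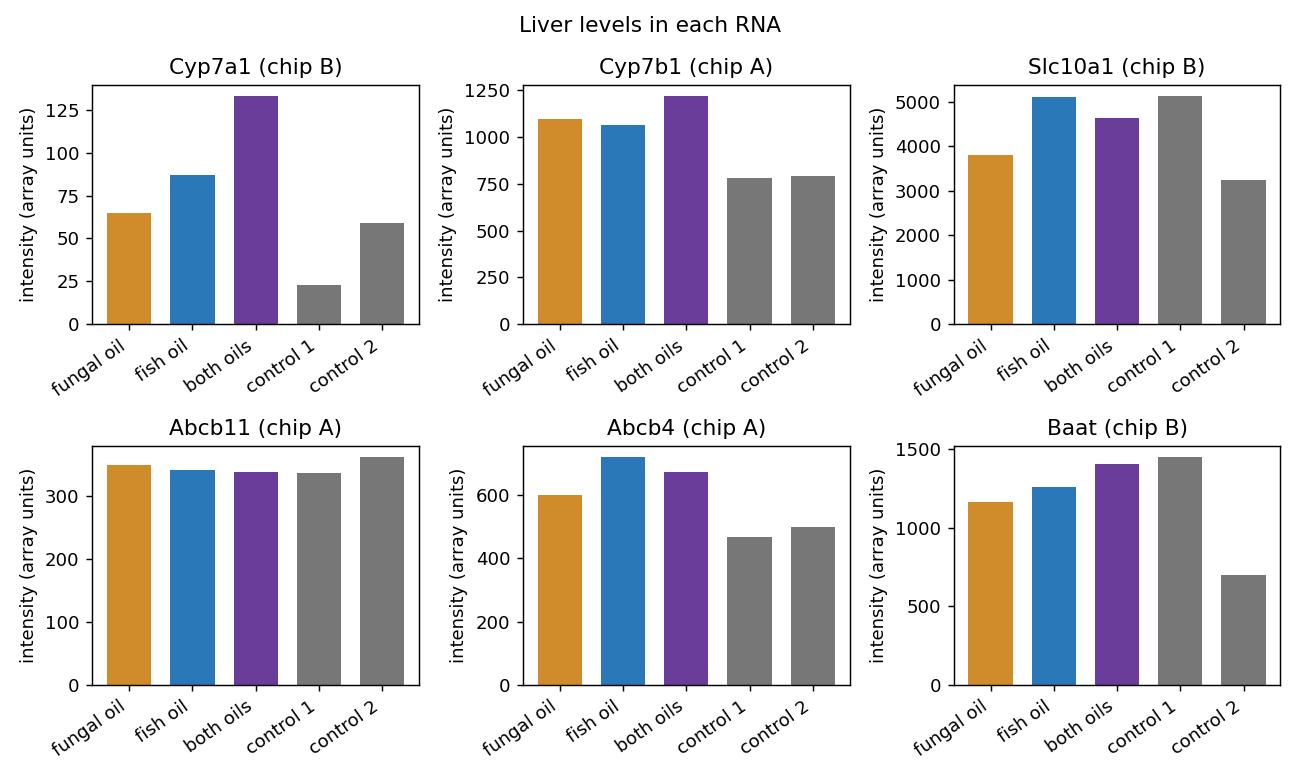
Liver intensity of each gene in every RNA, as bars from 0, with the 3 oil diets left of the 2 controls. Cyp7b1 and Abcb4 have all oil bars above a pair of nearly equal controls, Cyp7a1 has unequal controls of 23 and 59, and the oil bars of Baat and Slc10a1 lie between the controls.

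Counted over the 6 genes, Cyp7a1, Cyp7b1 and Abcb4 had all 3 oil RNAs above both controls, 3 of 6 where 12.5% of all kept probe sets did. None of the 6 had all 3 below, where 11.9% did. This count was chosen after the values were seen. At least 1.5-fold above each control were 2 of 6 with both oils, Cyp7a1 and Cyp7b1 (6.47% of all kept probe sets), 0 with fungal oil (4.38%) and 0 with fish oil (5.14%). Without the first control, Baat lay 1.5-fold above the other with fungal oil (11.2% of all kept probe sets did). Slc10a1 and Baat did so with fish oil (13.1%), and Cyp7a1, Cyp7b1 and Baat with both oils (14.4%). Without the second control it was Cyp7a1 with fungal oil (11.2%) and Cyp7a1 and Abcb4 with fish oil (12.2%). With both oils it was Cyp7a1 and Cyp7b1 (13.7%). None of the 6 lay 1.5-fold below each control with fungal oil (7.8%), fish oil (9.19%) or both oils (7.27%). The 3 oil diets share the control RNAs, so these counts are not independent of each other.

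**Figure D3:**
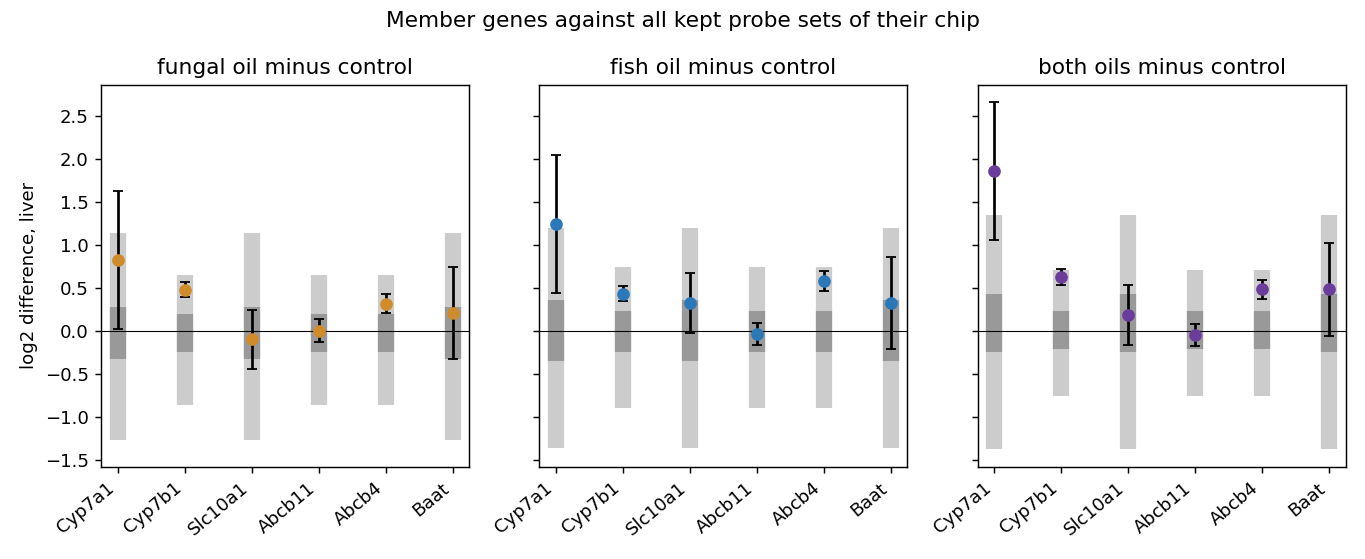
Log2 difference from the control mean in liver for each gene and oil diet, with the standard error of the fit as bars. Grey bands show the middle 50% (dark) and 90% (light) of kept probe sets of the gene's chip. Cyp7a1 lies outside the light band with fish oil and with both oils, where its standard error of 0.80 is also the widest, and Cyp7b1 and Abcb4 lie inside the light band throughout.

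The oils were also compared with each other. Abcb4 was lower with fungal than with fish oil by a log2 difference of -0.26 (SE 0.13, unadjusted p = 0.129, adjusted p = 0.599, limma), and for Cyp7b1 the difference was 0.05 (SE 0.10, adjusted p = 0.907, limma). The interaction, which is 0 where the effects of the oils add on the log2 scale, was -0.41 for Abcb4 (SE 0.17, adjusted p = 0.570, limma), -0.28 for Cyp7b1 (SE 0.13, adjusted p = 0.593) and -0.21 for Cyp7a1 (SE 1.22, adjusted p = 0.957).

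The oil difference of Cyp7b1 had opposite signs in the tissues. On the log2 scale the mean of all oil diets lay 0.51 above the control in liver. In hippocampus, with no both-oils array on chip A, the mean of fungal and fish oil lay -0.35 from the control. The difference of these, 0.86 (SE 0.17), had an unadjusted p of 0.00194 and an adjusted p of 0.191 in limma, in a test chosen after the values were seen. That fit took the oil RNAs of a tissue as replicates although their diets differed, so its SE includes differences between the oils. In hippocampus it had 1 control RNA. Slc10a1, Abcb11 and Abcb4 lay below the floor on every hippocampus array, so they could show no oil difference there. Of 7889 probe sets, 540 had an unadjusted p under 0.05 in that limma test, and 0.0507% were called at an adjusted p under 0.05.

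The other genes of the pathway were taken from lists of named genes, and no gene of any list passed at an adjusted p under 0.05. Over all kept probe sets the median log2 difference was -0.01 with fungal oil, 0.01 with fish oil and 0.05 with both oils. Among other bile acid synthesis enzymes, 6 of 18 listed were measured and kept, with medians of 0.22, 0.26 and 0.17, and 4 of the 6 had all oil RNAs above both controls, where 13.2% of 3515 kept genes did. They are Akr1c6, a steroid dehydrogenase, and Amacr, Hsd17b4 and Slc27a2, which act on the side chain in peroxisomes or activate it. Akr1c6 read 7369 with fungal oil, 7787 with fish oil and 6959 with both oils, and 6278 and 5975 in the controls. None of these enzymes lay 1.5-fold from both controls.

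Of 19 other bile acid and biliary transporters, 3 were kept. Abcc3, an exporter of the sinusoidal membrane, read 592 with fungal oil, 823 with fish oil and 924 with both oils, and 490 and 518 in the controls. It lay at least 1.5-fold above each control with fish oil and with both oils (log2 0.71 and 0.88, unadjusted p 0.00571 and 0.00301, not called by limma after adjustment). A second Abcc3 probe set gave log2 differences of 0.82 with fish oil and 0.07 with both oils. Abcg2 and Fabp1 showed no diet 1.5-fold from both controls. The Fabp1 probe sets disagreed in sign with fungal oil and with fish oil. The brightest gave log2 differences of -0.02, 0.41 and 0.03 with fungal oil, fish oil and both oils, and the other 0.27, -0.24 and 0.28.

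Of 19 regulators 13 were kept, with medians of 0.19, 0.00 and 0.14. Nr1h4, the bile acid receptor, read 376 with fungal oil, 300 with fish oil and 401 with both oils, and 261 and 288 in the controls. Nr0b2, the repressor it induces, read 784, 758 and 604 with the same diets, and 1003 and 860 in the controls. Of the 13 regulators, 3 had all oil RNAs above both controls (Nr1h4, Rxra and Fgf15) and 2 had all below (Nr0b2 and Mafg), where 13.2% and 13.1% of all kept genes did. Fgf15, the mouse hormone by which the intestine represses Cyp7a1, read 237, 251 and 215 in liver with the oil diets, and 198 and 193 in the controls. The intestine was not measured, so these liver values do not give the level of that hormone. The largest log2 differences of Nr1h4 and Nr0b2 were with both oils, 0.55 (unadjusted p = 0.027) and -0.62 (unadjusted p = 0.0312), neither called after adjustment by limma. Nr5a2, an activator of Cyp7a1, read 519, 483 and 559 with the oil diets and 467 and 531 in the controls, and its 2 other kept probe sets gave log2 differences of -0.29, 0.74 and 0.75, and of 0.14, 0.17 and 0.56. Hnf4a, which also activates Cyp7a1, read 85 with fungal oil, 187 with fish oil and 184 with both oils, and 125 and 126 in the controls. Among the 13, Mafg and Rxra were the 2 that lay 1.5-fold from both controls with any diet, and both were near or under the floor on some arrays.

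Of 10 genes of bile acid and xenobiotic detoxification 5 were kept, and all 5 had every oil RNA above both controls (13.2% of all kept genes did), with medians of 0.39, 0.66 and 0.45. Cyp3a11, which hydroxylates bile acids and drugs, read 7297 with fungal oil, 8429 with fish oil and 6542 with both oils, and 4935 and 4618 in the controls. Its log2 difference was 0.82 with fish oil (unadjusted p = 0.00751). Cyp2b9 read 161, 241 and 146 with the oil diets, and 20 and 94 in the controls.

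Of 16 cholesterol supply genes 5 were kept, with medians of 0.21, -0.15 and 0.18. Above the control mean were 3 of the 5 with fungal oil, 0 with fish oil and 4 with both oils. Hmgcs1, an early enzyme of cholesterol synthesis, read 1039 with fungal oil, 1328 with fish oil and 933 with both oils, and 1506 and 1667 in the controls. Of the 5 it alone had all oil RNAs below both controls, where 13.1% of all kept genes did. With both oils its log2 difference was -0.76 (unadjusted p = 0.00492, not called after adjustment by limma). A second Hmgcs1 probe set gave -0.60, -0.50 and -0.72. Scarb1, a receptor for high-density lipoprotein, read 125, 72 and 110 with the oil diets, and 73 and 79 in the controls.

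Of 17 clock and clock output genes 7 were kept, and they are given because the time of killing within the morning is not known for each diet. Dbp read 581 with fungal oil, 174 with fish oil and 747 with both oils, and 176 and 162 in the controls. Upp2 read 2044, 687 and 1779 with the oil diets, and 806 and 812 in the controls. Alas1, the first enzyme of haem synthesis, read 4573, 2265 and 3355, and 1299 and 1177 in the controls. Of the 7 kept, 3 (Alas1, Bhlhe40 and Per1) had all oil RNAs above both controls and 1 (Clock) had all below. Of all kept genes 13.2% and 13.1% did. Dbp and Upp2 were high with fungal oil and with both oils. The part of the time of day in the values of the bile acid genes was not tested.

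Of 9 macrophage markers all 9 were measured, and their summed liver intensity was 913 with fungal oil, 1166 with fish oil and 1072 with both oils, and 1579 and 1484 in the controls. Of 6 bile duct cell markers 4 were measured, with sums of 80 to 90 in the oil RNAs and 78 to 95 in the controls. Krt19 and Cftr were negative on all liver arrays, and Epcam on all but the second control, where it read 20. Negative values were summed as 0, so apart from that Epcam value the sums are Krt7 alone. Of the 4 markers, 0 were higher in liver than in hippocampus on every array. The part of either cell type in the values of the bile acid genes was not tested.

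**Figure D4:**
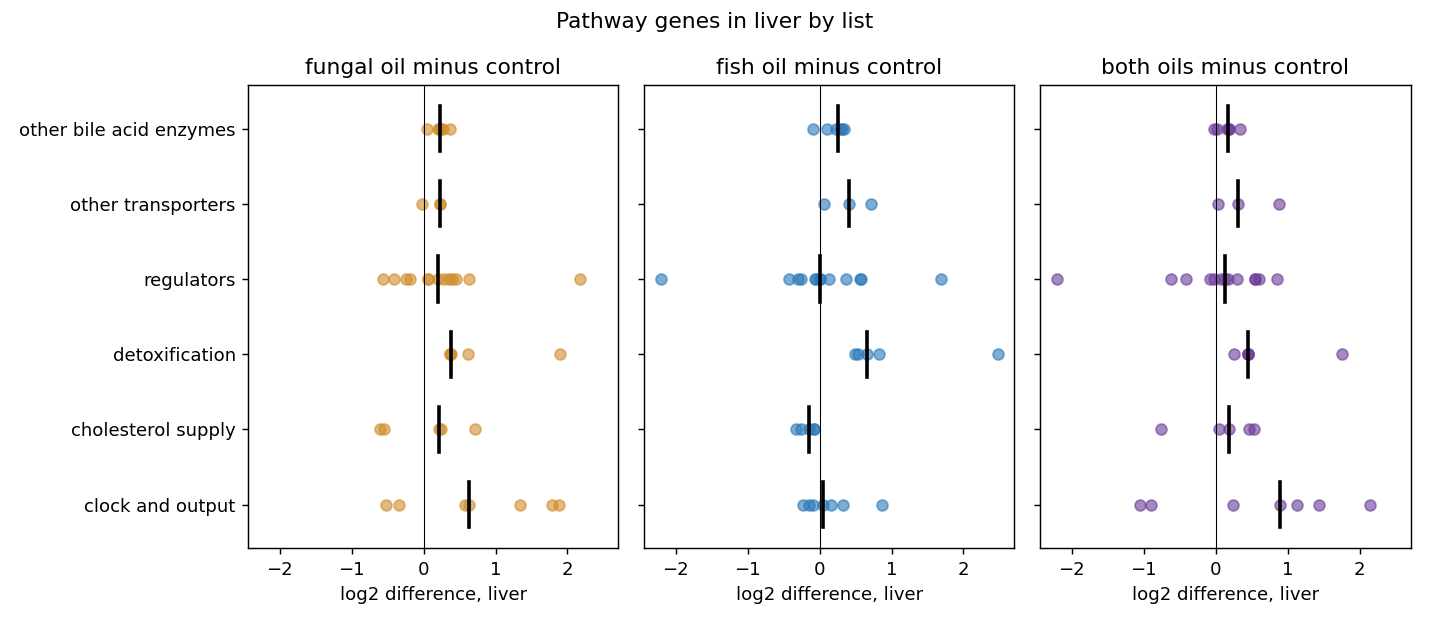
Log2 difference from the control mean in liver for each kept gene of 6 lists (points) with the median of the list (black line), a panel per oil diet. Detoxification genes lie above 0 in all panels, and the clock and output genes spread widely with fungal oil and with both oils and lie near 0 with fish oil, apart from Alas1 at 0.87.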

How the data were processed

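Per the labels, liver and hippocampus RNA was measured on arrays, and the authors deposited whole-number intensity values, negative ones included. No source used here gives their software or scaling step. The platform annotation gives 1 symbol to 5541 of 6529 probe sets on chip A and to 2001 of 6540 on chip B. Signals under 15 (0.1 times the trimmed mean of 150) were raised to 15 before log2, and a probe set was kept in a tissue where its mean reached the chip's median there (6537 in liver). limma 3.58.1 in R 4.3.3 (lmFit, eBayes with an intensity trend) was run per chip, with Benjamini-Hochberg adjustment over both chips. The liver fit has 1 residual degree of freedom, from the controls, whose spread stands in for that of every oil diet. The tissue fit (7889 probe sets) has diet as a covariate, with arrays scaled to a common trimmed mean. On simulated data the liver fit called 59% of probe sets changed by a log2 of 1 and 99% of those changed by 2 with both oils (6537 probe sets). The simulated spread depended on brightness alone. Real probe sets of equal brightness need not share a spread, so these shares may be too high for the real data. The number of arrays limits the precision. The genes and lists were chosen with earlier results of these data known. Listed genes were named by the 1.5-fold rule, and Akr1c6, Amacr, Hsd17b4, Slc27a2, Nr1h4, Nr0b2, Fgf15, Bhlhe40, Per1, Clock, Nr5a2 and Hnf4a after their values were seen. Where a gene has several probe sets, the brightest stands for it. Alternatives varied the floor, filter, normalization, trend and samples.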

Additional observations from a re-analysis of the deposited data

Results flagged for a closer look

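Cyp7b1 had an oil difference of opposite signs in the tissues. Relative to the control of the same tissue, the oil diets averaged 0.51 in liver and -0.35 in hippocampus on the log2 scale, a difference of 0.86 (unadjusted p = 0.00194, adjusted p = 0.191, limma). All 3 oil RNAs of liver lay above both controls. In hippocampus chip A has no both-oils RNA, and the fungal and fish oil RNAs lay below the only control there. The call did not pass after adjustment over 7889 probe sets. The fit took the oil RNAs of a tissue as replicates although their diets differed.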

How the results depend on the processing

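None of the 6 genes was called in a liver diet contrast by limma with the floor at 7.5 or 37.5, quantile normalization, no filter, no trend, the additive fit, the fit of 3 oil RNAs against 2 controls or the brightest subset, which left Cyp7a1 untested, while the counts over all probe sets moved from 0. Without the filter on dim probe sets the liver counts were 328 with fungal oil, 395 with fish oil, 341 with both oils, 904 for any oil, 609 for fungal against fish oil and 821 for the interaction, and 321, 383, 328, 868, 602 and 805 of these had both controls at the floor. With only probe sets above the 75th percentile of brightness the counts were 26, 39, 37, 56, 7 and 1. An additive fit of the oils gave 5 with fungal oil and 16 with both oils, and 3 oil RNAs against 2 controls gave 4. The tissue count was 2558 among the brightest probe sets. For the tissue difference of the oil effect, called for 4 probe sets, the counts were 178 without the filter, 12 among the brightest and 11 without the trend; that test and the 25% rule below were chosen after seeing the data.

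With 1 control left out at a time, the number of the 6 genes past 1.5-fold in liver was 1 with fungal oil and 2 with fish oil. With both oils it was 3 without the first control and 2 without the second. The number was 1 with both oils among the brightest. At a rule of 25% it was 1 with fungal oil, 3 with fish oil and 3 with both oils. In hippocampus without the filter it was 1 with fungal oil and 1 with both oils. For the brightest subset, the 25% rule and unfiltered hippocampus no share of all probe sets is given, so those counts are descriptions. The log2 differences without 1 control or the other ranged over -0.049 to 0.059 with fungal oil, -0.086 to 0.021 with fish oil and -0.099 to 0.0086 with both oils for Abcb11. For Slc10a1 they ranged over -0.43 to 0.23, -0.0014 to 0.66 and -0.14 to 0.52, and for Baat over -0.32 to 0.74, -0.20 to 0.85 and -0.047 to 1.01. Abcb11 with fungal oil was also -0.022 under quantile normalization and -0.0025 in the additive fit. The cause of these changes was not tested. Over all alternatives Cyp7a1 ranged over 0.14 to 1.50 with fungal oil, 0.56 to 1.92 with fish oil and 1.17 to 2.53 with both oils. Cyp7b1 ranged over 0.36 to 0.49, 0.31 to 0.44 and 0.61 to 0.67 (lowest adjusted p = 0.0935, limma), and Abcb4 over 0.14 to 0.36, 0.40 to 0.63 and 0.44 to 0.54. All 6 tissue differences kept their direction. Without a control the liver fit has no residual degrees of freedom and gives no test. No analysis was paired by animal, because the labels do not say whether an RNA came from 1 mouse or several. The tissue fit compares the tissues with diet as a covariate. Signal over background limits Cyp7a1, which drops out of the brightest subset.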

Other observations

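Other hepatocyte gene groups were described in the same liver RNAs. Of 7 pericentral genes 4 were kept, and Glul and Oat had all oil RNAs above both controls, where 13.2% of all kept genes did. Glul, glutamine synthetase of the hepatocytes around the central vein, was dim and read 56 with fungal oil, 89 with fish oil and 89 with both oils, and 10 and 22 in the controls. Oat read 2432, 1714 and 1636 with the oil diets, and 1574 and 1519 in the controls. Of 8 periportal genes 5 were kept, and G6pc, glucose-6-phosphatase, read 1224, 1669 and 553 with the oil diets, and 969 and 1160 in the controls. Of 9 male-predominant genes 4 were kept, and Elovl3, a fatty acid elongase, read 421, 983 and 317 with the oil diets, and 513 and 520 in the controls. None of these passed at an adjusted p under 0.05 in limma.

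The genes of chip B most like Cyp7a1 over the 5 liver RNAs, of 1082 compared, were Foxo3, Dck and Alcam, with root mean square log2 differences of 0.294, 0.295 and 0.325. For Cyp7b1, of 2609 genes of chip A, they were Bpifa1, Dsg2 and Gstt2, with 0.030, 0.050 and 0.067.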
